A study of Homo sapiens with 6 samples.

Results

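The genes described here belong to the pathways of cereblon-binding, exportin-blocking, glucocorticoid and deacetylase-inhibiting drugs for multiple myeloma. Some encode proteins that these drugs bind, and others encode partners or targets of those proteins. They are CRBN, DDB1, CUL4A and CUL4B of the cereblon ubiquitin ligase, its drug-recruited substrates IKZF1 and IKZF3, the nuclear exportin XPO1, the glucocorticoid receptor NR3C1 with its target TSC22D3, and the deacetylase HDAC6. The members were chosen by name and Ensembl identifier, by a rule that uses no measured value. They were, however, proposed with earlier results of these data known. They number 10 of 57773 genes listed on the primary chromosomes. All 10 passed the filter on low counts. RNA-Seq was made from RPMI8226, an established human multiple myeloma line of labelled genotype WT, cultured for 6 hr with 100 nM GST-PTR1, in which glutathione-S-transferase (GST) is fused to the PTR1 part of HAPLN1, a protein of the bone marrow matrix, or with 100 nM GST alone. Each treatment had 3 biological replicates, no drug was given, and all libraries come from this one cell line. The comparison asks whether the transcripts of drug targets and of their partners differed between cells exposed to GST-PTR1 and to GST.

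Cereblon is the substrate receptor of a cullin-RING ligase in which DDB1 is the adaptor and CUL4A or CUL4B the scaffold. Lenalidomide and related compounds bind cereblon and bring the zinc finger factors Ikaros (IKZF1) and Aiolos (IKZF3) to the ligase for degradation, and myeloma cells depend on these factors through IRF4 and MYC. Dexamethasone acts through the glucocorticoid receptor, a chaperone-bound transcription factor that enters the nucleus after binding hormone and induces genes such as TSC22D3, which encodes GILZ. Selinexor blocks exportin 1, which carries proteins with a leucine-rich signal out of the nucleus, and inhibitors of HDAC6 disturb the transport of ubiquitinated protein to the aggresome.

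The libraries held 15202503, 20077280 and 23453473 counts for GST and 22874133, 28837431 and 44688737 for GST-PTR1. The numbers in the table's column names are not those of the labelled replicates, so the libraries are given throughout in the order of these totals. Across genes, log2 CPM correlated between libraries with a Pearson's r of 0.989 to 0.996 within a treatment and 0.958 to 0.979 between treatments. The 8 plasma cell markers were all measured, with a summed level of 1954 to 2443 CPM in GST and 2012 to 2208 CPM in GST-PTR1, and the defining markers of T cells (CD3D, CD3E and CD2) as well as LYZ, COL1A2 and DCN had at most 3 counts in any library. The summed myeloid and stromal markers each reached at most 1.32 CPM in any library, and epithelial markers summed to 153 to 172 CPM in GST and 120 to 128 CPM in GST-PTR1, of which KRT18 was lower (edgeR, adjusted p = 0.000638). The part of these markers in the results was not tested. Levels below are CPM, read counts scaled to library size with TMM factors, a scaling that assumes that most genes do not differ between libraries. The factors were 1.05 to 1.10 in GST and 0.88 to 0.97 in GST-PTR1. In edgeR's quasi-likelihood test, 3486 of 16926 genes (20.6%) had an adjusted p under 0.05, with 9.15% higher and 11.4% lower after GST-PTR1. With plain library totals in place of TMM, 927 were higher and 3795 lower, because the log2 fold changes of all genes then shift by -0.20.

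Of the 10 genes, 3 passed the test, where 20.6% of all genes did. IKZF1 was higher after GST-PTR1, CUL4B and TSC22D3 were lower, and the other 7 did not pass. TSC22D3 alone also changed at least 2-fold by its estimate, where 7.53% of all genes passed with at least that change and 3.85% did so as lower. In bulk RNA a difference can come from fewer cells with a transcript or from less of it per cell, which cannot be told apart. The median log2 fold change over the members was 0.00, and over all genes tested it was 0.01. For 6 of the 7 genes that did not pass, namely CRBN, DDB1, CUL4A, IKZF3, XPO1 and NR3C1, the 95% interval of the change lay within 1.5-fold in either direction. The treatments did not overlap for IKZF1, CUL4B, TSC22D3 and HDAC6, where 40.4% of all genes tested showed no overlap.

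**Figure D1:**
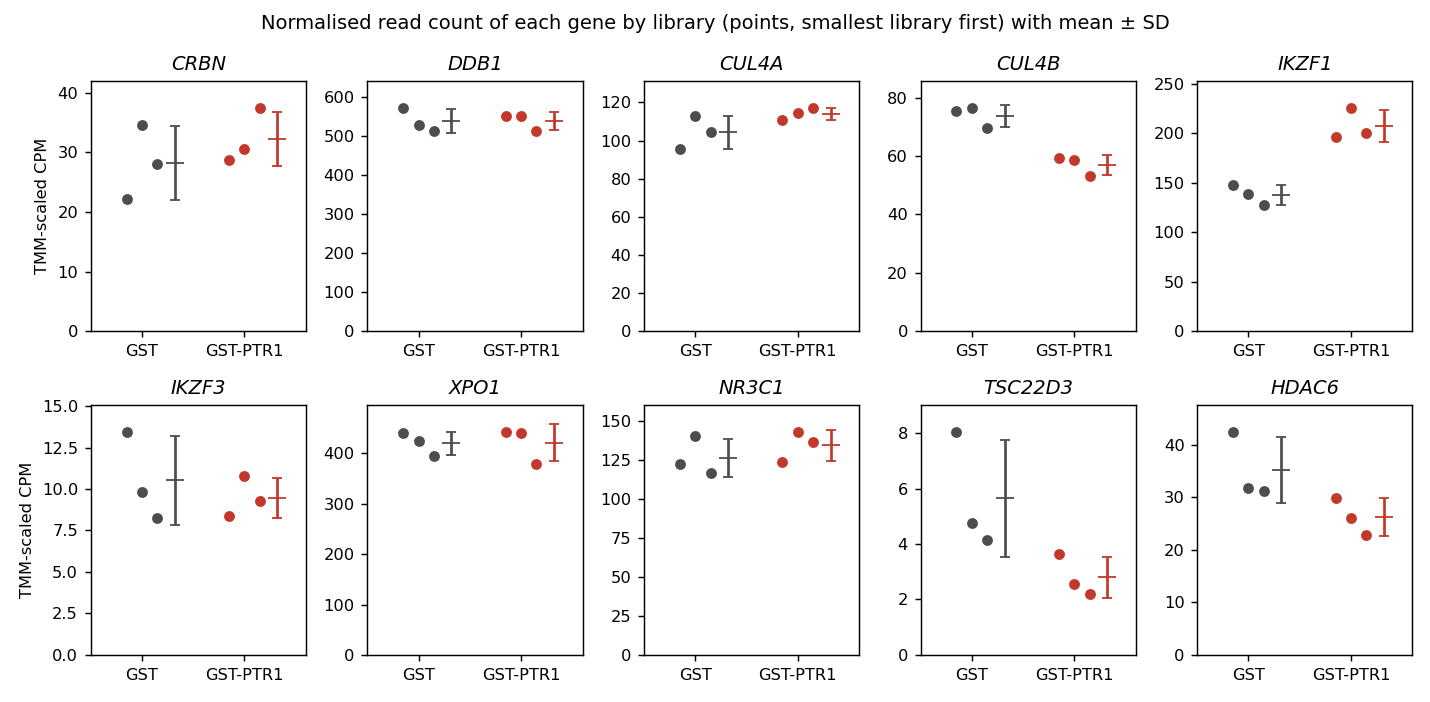
TMM-scaled CPM (vertical axes, linear from 0) of each of the 10 genes in the 3 GST libraries (grey) and the 3 GST-PTR1 libraries (red), each set in order of library total, with the mean and SD drawn beside the points. IKZF1 sits at 127 to 147 CPM in GST and 196 to 225.5 CPM in GST-PTR1, CUL4B, TSC22D3 and HDAC6 are lower in every GST-PTR1 library than in any GST library, and the points of the other 6 genes overlap.

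The promoters of the members were searched for the NF-κB consensus, because the response of NF-κB targets to GST-PTR1 was a subject of the study, and for glucocorticoid elements. The windows, from RefSeq on GRCh38.p14, run from 250 bases before to 50 bases after each annotated start, and 9 of the 10 members matched with 30 windows. IKZF3 had no window and was not searched. The NF-κB consensus was found on either strand in 3 of the 30 windows, where 11.3% of all 35116 windows held it. Counted by gene, it was in 3 of the 9 members, where 13.3% of 27305 genes held it, and the difference was not tested. These matches lay 82 bases before a start of CUL4B, 168 before one of XPO1 and 94 before one of NR3C1. They are shown on the gene's strand, with the match in capitals, because they are all the matches among the members, 1 in a called gene and 2 in genes without a call, while the windows of IKZF1 and TSC22D3 held none:
CUL4B, chrX:120575585-120575634, minus strand: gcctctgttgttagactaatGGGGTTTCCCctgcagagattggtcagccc
XPO1, chr2:61537226-61537275, minus strand: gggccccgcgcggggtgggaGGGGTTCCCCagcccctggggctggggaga
NR3C1, chr5:143403348-143403397, minus strand: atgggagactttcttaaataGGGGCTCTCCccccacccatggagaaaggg
The full palindromic glucocorticoid element was in none of the members' windows and in 1 window of all. Its shorter part, AGAACA or TGTTCT, was in 1 of the members' windows, 231 bases before a start of CUL4B, and in 14.8% of all windows. These matches describe letters in the windows and were not tested as sites.

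Among the subunits of the cereblon ligase, only CUL4B passed the test. The substrate receptor CRBN (ENSG00000113851, GRCh37 chr3:3190676-3221394, minus strand) gave 22.1, 34.5 and 28.1 CPM in GST and 28.7, 30.5 and 37.4 CPM in GST-PTR1. The treatments overlapped, with the smallest GST library lowest and the largest GST-PTR1 library highest. The log2 fold change was 0.19 ± 0.17 (SE, n = 3 and 3), with a 95% interval of -0.18 to 0.55 and an adjusted p of 0.439 in edgeR's test. The adaptor DDB1 (ENSG00000167986, chr11:61066923-61110068, minus strand) gave 572, 528 and 514 CPM in GST and 550, 552 and 511 CPM in GST-PTR1. These ranges lay over each other, with means of 538 ± 30.3 and 538 ± 22.9 CPM (SD). The fold change was 1.00, with a 95% interval of 0.852 to 1.17 (edgeR, adjusted p = 0.998).

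CUL4A and CUL4B are paralogous scaffolds that hold the RING subunit at one end and DDB1 at the other. CUL4A (ENSG00000139842, chr13:113862552-113919399, plus strand) gave 95.3, 113 and 104 CPM in GST and 111, 114 and 117 CPM in GST-PTR1. The upper GST library lay within the GST-PTR1 range, and the log2 fold change of 0.13 ± 0.10 did not pass (edgeR, adjusted p = 0.379). CUL4B (ENSG00000158290, chrX:119658464-119709649, minus strand) gave 75.3, 76.5 and 69.6 CPM in GST and 59.4, 58.6 and 53.1 CPM in GST-PTR1, so every GST-PTR1 library was below every GST library. CUL4B fell by 0.37 ± 0.099 on the log2 scale, to 0.773 of the GST level with a 95% interval of 0.664 to 0.899 (edgeR, adjusted p = 0.0229). The call was kept in 10 of 14 alternative settings. It was lost without the GST library of 20077280 counts (adjusted p = 0.0612), without the GST-PTR1 library of 28837431 counts (0.0763), without that of 44688737 counts (0.0879) and with a filter of 1 count in any library (0.0503).

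The ratio of CUL4A to CUL4B, computed within each library from counts per exon length, does not depend on the scaling between libraries. It was 1.54, 1.79 and 1.82 in GST and 2.26, 2.37 and 2.68 in GST-PTR1, without overlap. Put as a share, CUL4B made up 39.4%, 35.8% and 35.4% of the CUL4A and CUL4B signal per length in GST and 30.6%, 29.7% and 27.2% in GST-PTR1. The log2 ratio differed by 0.50, against a pooled SD of 0.13 between libraries. The exact two-sided permutation test gave p = 0.1, the smallest that 3 libraries against 3 allow, and 0.175 after adjustment over the 7 ratios computed. The deposited exon model of CUL4A covers 73.5% of the exon bases of GENCODE release 29, while that of CUL4B covers 100%, which bears on the level of the ratio in both treatments.

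The wider list of the cereblon ligase, its neddylation and signalosome regulators and its conjugating enzymes had 25 genes, all tested. In edgeR's test 2 were higher, 1 was lower and 22 did not pass, a share of 12% called beside 20.6% of all genes, and the median log2 fold change was 0.14, or -0.06 with library totals. The higher genes were the conjugating enzyme UBE2D3, at 178 ± 13.6 CPM in GST and 223 ± 14.0 CPM in GST-PTR1 (log2 0.33, adjusted p = 0.0471), and UBA3, the catalytic subunit of the NEDD8-activating enzyme (log2 0.33, adjusted p = 0.0474). UBE2D3 was called in 7 and UBA3 in 5 of 14 alternatives, and library totals gave 0 higher and 2 lower. Leaving out the GST library of 20077280 or the GST-PTR1 library of 22874133 counts left 1 higher gene, and leaving out any of the other 4 libraries left 0. The RING subunit RBX1 had a log2 fold change of 0.20, the DDB1-associated DDA1 of 0.15, the signalosome protease COPS5 of 0.29 and UBE2G1, a conjugating enzyme used by the cereblon ligase, of -0.01. None of these 4 passed.

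Of the lymphoid factors that lenalidomide-bound cereblon captures, IKZF1 rose and IKZF3 did not pass the test. IKZF1 (ENSG00000185811, chr7:50343720-50472799, plus strand) gave 147, 138 and 127 CPM in GST and 196, 225.5 and 200.2 CPM in GST-PTR1. All 3 GST-PTR1 libraries were above all GST libraries, and the gap between the treatments was wider than the spread within either. IKZF1 rose 1.51-fold, with a 95% interval of 1.28 to 1.77 (log2 0.59 ± 0.11, edgeR, adjusted p = 0.00272). It was called under all 14 alternative settings, with log2 fold changes of 0.40 to 0.64 and adjusted p-values of 5.67e-06 to 0.0246. Between the GST and GST-PTR1 libraries with the closest totals, 23453473 and 22874133 counts, IKZF1 had 3170 and 4370 counts, a scaled ratio of 1.54 with a counting interval of 1.47 to 1.62. This pair was picked after the values were seen, and the interval covers counting error only.

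IKZF3 (ENSG00000161405, chr17:37921198-38020441, minus strand) gave 13.5, 9.81 and 8.27 CPM in GST and 8.35, 10.8 and 9.29 CPM in GST-PTR1. The GST-PTR1 values lay inside the GST range, and the smallest GST library was the highest of all 6. The log2 fold change was -0.14 ± 0.19 (edgeR, adjusted p = 0.627), and without that library it was 0.07. The counts of IKZF3 come from 2778 exon bases, 27.8% of the 10008 in GENCODE release 29, so its low level holds only the part of the transcript that release 75 annotates.

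Within each library the IKZF1 to IKZF3 ratio per length was 3.09, 3.97 and 4.33 in GST and 6.61, 5.90 and 6.07 in GST-PTR1. The 2 sets of values did not overlap, and the log2 ratio differed by 0.72 (exact permutation p = 0.1, adjusted 0.175 over 7 ratios). The ratio of IKZF1 to its ligase receptor CRBN differed by 0.39 on the log2 scale, with overlap between treatments (exact permutation p = 0.2, adjusted 0.28). For IKZF3 over CRBN the difference was -0.33, also with overlap (exact permutation p = 0.6). CRBN over DDB1 differed by 0.20 with overlap (exact permutation p = 0.5). These ratios share members and libraries, so they are not separate evidence.

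**Figure D2:**
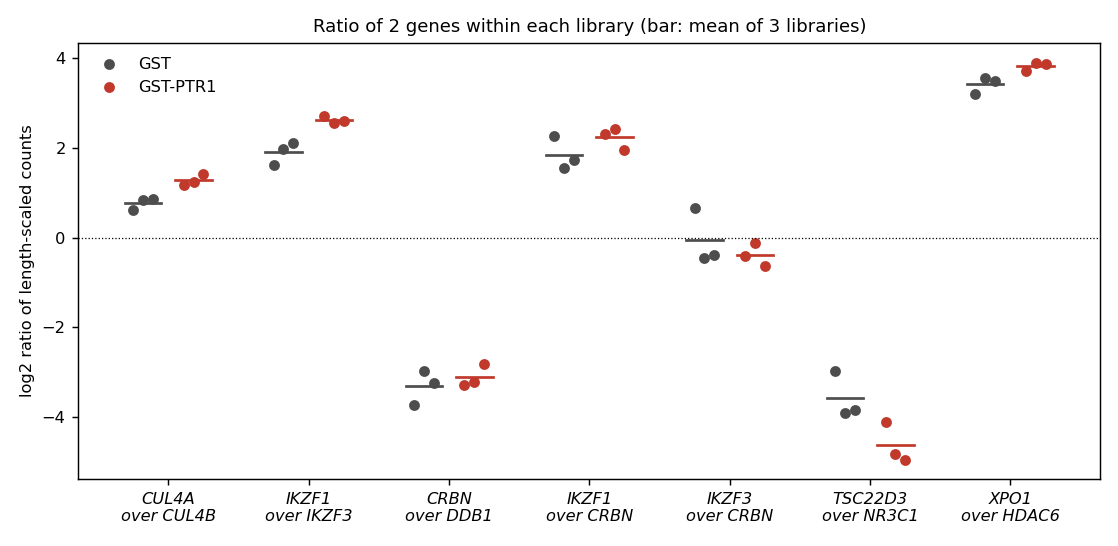
Log2 ratio of length-scaled counts between pairs of members (vertical axis) in the 3 GST (grey) and 3 GST-PTR1 (red) libraries, with a bar at each mean. The ratios of CUL4A over CUL4B, IKZF1 over IKZF3 and of XPO1 over HDAC6 are higher in all GST-PTR1 libraries, TSC22D3 over NR3C1 is lower in all of them, and the 3 ratios with CRBN overlap.

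The list of cereblon drug substrates, the factors downstream of them and other genes linked to cereblon had 24 genes, of which 22 were tested. ZBTB16 and SALL4, which code for zinc finger proteins degraded with some cereblon ligands, had at most 3 counts in any library. In edgeR's test 4 genes were higher, 3 lower and 15 not called (31.8% called, against 20.6% of all genes), with a median log2 fold change of 0.07. Library totals gave 2 higher and 5 lower. There were 2 higher without the GST library of 23453473 or the GST-PTR1 library of 28837431 counts, 1 lower without the GST library of 15202503 or the GST-PTR1 library of 44688737 counts, and 0 lower without the GST-PTR1 library of 28837431 counts. IRF4, the plasma cell factor on which lenalidomide toxicity depends, gave 269, 276 and 280 CPM in GST and 434, 457 and 407 CPM in GST-PTR1. Its values were close to each other in GST and higher in every GST-PTR1 library, with a log2 fold change of 0.65 (edgeR, adjusted p = 0.00106, called in 14 of 14 alternatives). MYC, at 909 ± 47.9 and 967 ± 32.2 CPM, had a log2 fold change of 0.09 and did not pass (adjusted p = 0.586).

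The other higher genes of that list were ZNF827, a zinc finger protein (log2 0.59, edgeR adjusted p = 0.0313), and SLC16A1, the lactate transporter MCT1 that cereblon stabilises as a chaperone (log2 0.40, adjusted p = 0.0235), each called in 8 of 14 alternatives. The lower genes were ZMYM2 with -0.43, RNF166 with -0.56 and the homeobox gene MEIS2 with -0.61, with adjusted p-values of 0.0161, 0.0206 and 0.025. Several well-known substrates of cereblon compounds did not pass. Casein kinase 1 alpha (CSNK1A1) had a log2 fold change of 0.13, ZFP91 of 0.08 and the translation termination factor GSPT1 of 0.18. Of the 5 Ikaros family genes, IKZF1 was higher and none was lower in edgeR's test, a share of 20% beside 20.6% of all genes. No other family member had an unadjusted p under 0.05, DESeq2 and limma voom also called IKZF1 alone, and IKZF2, IKZF4 and IKZF5 had log2 fold changes of -0.07, -0.15 and 0.09.

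XPO1 (ENSG00000082898, chr2:61704984-61765761, minus strand), the target of selinexor, was among the most abundant members per length. It gave 441, 424 and 396 CPM in GST and 444, 442 and 379 CPM in GST-PTR1. The largest GST-PTR1 library held the lowest value and the smallest GST-PTR1 library the highest, so the treatments overlapped fully. The fold change was 1.00 with a 95% interval of 0.847 to 1.19 (log2 0.00 ± 0.11, edgeR, adjusted p = 0.987). With library totals the log2 value was -0.19, close to the -0.20 by which that scaling moves the median of all genes.

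Of 36 genes for nuclear transport receptors and the Ran system, all tested, 2 were higher and none lower in edgeR's test (5.56% called, against 20.6% of all genes). At an unadjusted p under 0.05, 11 were higher and 2 lower, DESeq2 called 6 higher and 0 lower, and limma voom called 3 higher and 0 lower. With library totals 0 were higher and 2 lower. There was 1 higher gene without the GST library of 15202503 counts, 1 higher and 1 lower without the GST-PTR1 library of 22874133 counts, 4 higher without the GST library of 20077280 counts, and 0 higher without the GST library of 23453473 or the GST-PTR1 library of 28837431 counts. The 2 higher genes were XPO5, the exportin of microRNA precursors, at 167 ± 4.03 and 210 ± 6.91 CPM (log2 0.33, adjusted p = 0.0293), and RCC1, the nucleotide exchange factor that charges Ran in the nucleus, at 228 ± 10.9 and 286 ± 5.28 CPM (log2 0.33, adjusted p = 0.0355). The GTPase RAN had a log2 fold change of 0.45 with an adjusted p of 0.095, and the importin KPNA2 of 0.43 with 0.0556, both spread widely between libraries. KPNB1, the importin beta subunit, had 0.16 and CSE1L, which returns importin alpha to the cytoplasm, had 0.19, and neither passed.

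NR3C1 (ENSG00000113580, chr5:142657496-142815077, minus strand), the receptor of dexamethasone, gave 122, 140 and 116 CPM in GST and 123, 143 and 136 CPM in GST-PTR1. Values overlapped between treatments, and the fold change was 1.06 with a 95% interval of 0.900 to 1.26 (edgeR, adjusted p = 0.596). TSC22D3 (ENSG00000157514, chrX:106956451-107020572, minus strand), which encodes the glucocorticoid-induced leucine zipper GILZ, was lower in every GST-PTR1 library. It had 134, 100 and 103 counts in GST and 81, 70 and 87 counts in GST-PTR1, or 8.05, 4.74 and 4.13 CPM against 3.64, 2.57 and 2.21 CPM. Per length it was the least abundant member in both treatments, and it fell by 1.01 ± 0.28 on the log2 scale (edgeR, adjusted p = 0.0261), to 0.496 of the GST level with an interval of 0.324 to 0.759.

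The level of TSC22D3 moved with library size as well as with treatment. In both treatments its CPM was highest in the smallest library and lowest in the largest. With all libraries thinned to the smallest total, an alternative added after seeing the data, the log2 fold change was -0.98 (edgeR, adjusted p = 0.0296). Thinning keeps each gene's expected share of its library. It therefore evens the depth of counting but cannot show whether the level follows library size. Between the closest totals, the scaled ratio of GST-PTR1 to GST was 0.880 with a counting interval of 0.650 to 1.19. Without the GST library of 15202503 counts the log2 fold change was -0.68 (adjusted p = 0.0649), and without the GST-PTR1 libraries of 28837431 or 44688737 counts the adjusted p was 0.0791 in each case. The ratio of TSC22D3 to NR3C1 within libraries fell by 1.04 on the log2 scale, without overlap (exact permutation p = 0.1, adjusted 0.175 over 7 ratios).

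**Figure D3:**
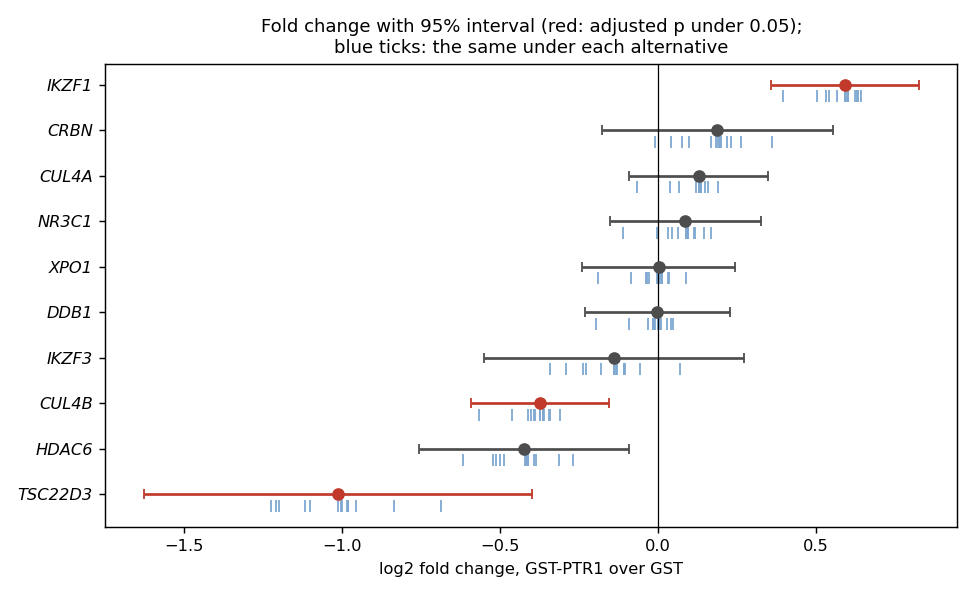
Log2 fold change of GST-PTR1 over GST (horizontal axis) for each member, with its 95% interval from edgeR (lines) and the values under the alternative settings (blue ticks), red where the adjusted p was under 0.05. IKZF1 lies right of 0 and CUL4B and TSC22D3 left of it with their intervals, the interval of HDAC6 also excludes 0 without an adjusted p under 0.05, and the other 6 intervals include 0.

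The receptor's chaperones and coregulators, 28 genes that were all tested, had 2 higher and 0 lower genes in edgeR's test (7.14% called, against 20.6% of all genes). At an unadjusted p under 0.05, 6 were higher and 1 lower, while DESeq2 called 5 higher and limma voom 2 higher, with 0 lower in each. Library totals gave 1 higher and 2 lower, and 1 was higher without the GST library of 23453473 or the GST-PTR1 library of 28837431 counts. HSD11B1, which regenerates active cortisol from cortisone, gave 2.28, 1.18 and 1.89 CPM in GST and 4.67, 4.95 and 5.30 CPM in GST-PTR1. The 2 treatments did not overlap, at a low level in both, and the log2 fold change was 1.49 (edgeR, adjusted p = 0.00105, called in 14 of 14 alternatives). NCOA3, a coactivator of nuclear receptors, stood at 173 ± 15.3 and 240 ± 11.6 CPM (log2 0.48, adjusted p = 0.00906).

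The chaperones that hold the receptor ready for hormone did not pass the test. HSP90AB1 had a log2 fold change of 0.33 (edgeR, adjusted p = 0.105), HSP90AA1 of 0.27, the immunophilin FKBP4 of 0.21 and the cochaperone PTGES3 of 0.02. FKBP5, a glucocorticoid-induced immunophilin that lowers the receptor's hormone affinity, gave 139, 124 and 122 CPM in GST and 123, 110 and 97.9 CPM in GST-PTR1. The ranges overlapped at one end, and the log2 fold change of -0.22 did not pass (adjusted p = 0.189). The coactivator NCOA2 had -0.02 and the corepressor NCOR1 had -0.10.

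Genes known to be induced by glucocorticoids did not move as one group. Of 39 names, 38 were matched to a gene on the primary chromosomes and 35 were tested, of which 13 were higher, 8 lower and 14 not called in edgeR's test. The share called was 60.0%, where 20.6% of all genes passed, and 8 rose and 4 fell at least 2-fold. The list was written with earlier results of these data known, and its share was not tested. The median log2 fold change was 0.31, or 0.10 with library totals, which left 11 higher and 11 lower. Several of these genes are also known targets of NF-κB.

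The genes of that list with the smallest adjusted p-values all rose. SGK1, a kinase used as a marker of receptor activity, gave 6.85, 10.3 and 8.63 CPM in GST and 127, 143 and 155 CPM in GST-PTR1, a log2 fold change of 4.03 (edgeR, adjusted p = 3.23e-08). The transcription factor gene CEBPD rose from 0.467 ± 0.0819 to 15.05 ± 2.01 CPM and the metallothionein MT2A from 4.83 ± 1.62 to 79.3 ± 21.1 CPM, with log2 fold changes of 5.01 and 4.02. CEBPD was barely counted in GST, at 0.541, 0.379 and 0.481 CPM. It passed the filter on low counts through its GST-PTR1 libraries, and the filter of 10 counts in every library left it out. BIRC3, which encodes cIAP2, and NFKBIA, which encodes the NF-κB inhibitor IκBα, had log2 fold changes of 3.92 and 3.02, and both are also NF-κB targets. BCL2L11, which encodes the pro-apoptotic protein BIM that dexamethasone raises in lymphoid cells, rose by a log2 fold change of 0.68 (adjusted p = 0.00172). TSC22D1, another gene of the TSC22 family, rose by 0.50 (adjusted p = 0.00685) where TSC22D3 fell.

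TSC22D3 was not the single glucocorticoid-induced gene to fall. RHOB, a small GTPase, gave 31.9, 24.9 and 28.5 CPM in GST and 10.2, 10.2 and 9.04 CPM in GST-PTR1, and fell by 1.54 on the log2 scale (edgeR, adjusted p = 1.26e-05). The cell cycle inhibitor gene CDKN1C fell by 1.47, the insulin signalling adaptor IRS2 by 1.35, the sestrin gene SESN1 by 0.77 and the kinase subunit gene PIK3R1 by 0.62. PER1, a circadian gene with well-known receptor sites, fell by 0.63 (adjusted p = 0.0103). The MAP kinase phosphatase DUSP1 and the transcription factor KLF9, which are rapid receptor targets, had log2 fold changes of -0.03 and -0.15 and did not pass.

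HDAC6 (ENSG00000094631, chrX:48659784-48683392, plus strand), the cytoplasmic deacetylase of tubulin, gave 42.6, 31.8 and 31.3 CPM in GST and 29.9, 26.1 and 22.8 CPM in GST-PTR1. The treatments did not overlap, but the smallest GST library stood well above the other two. The log2 fold change was -0.42 ± 0.15 with a 95% interval of -0.75 to -0.09, and the gene did not pass (edgeR, adjusted p = 0.0717). It was called in 4 of 14 alternatives, among them library totals (-0.62) and upper-quartile factors (-0.51), and without the smallest GST library the value was -0.27. Like TSC22D3, HDAC6 had its highest CPM in the smallest and its lowest in the largest library of each treatment. Between the closest totals the scaled ratio was 0.958 with a counting interval of 0.863 to 1.06. The log2 ratio of XPO1 to HDAC6 within libraries differed by 0.42, without overlap (exact permutation p = 0.1, adjusted 0.175 over 7 ratios).

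Across the 18 histone deacetylase genes, all tested, 4 were lower and 0 higher in edgeR's test (22.2% called, against 20.6% of all genes). At an unadjusted p under 0.05, 5 were lower and 3 higher, and DESeq2 and limma voom called 4 lower and 0 higher each. There were 2 lower without the GST-PTR1 library of 28837431 counts, 2 higher without the GST library of 15202503 counts and 1 higher without that of 20077280 counts. The median log2 fold change was -0.13, or -0.33 with library totals. HDAC5, a class IIa enzyme, gave 40.5, 24.4 and 25.5 CPM in GST and 16.4, 14.95 and 12.3 CPM in GST-PTR1, a decrease of 1.05 on the log2 scale (adjusted p = 0.00362). The smallest GST library was again the highest. HDAC11 fell by 1.01 at a level of at most 1.85 CPM, and the mitochondrial sirtuins SIRT3 and SIRT5 fell by 0.71 and 0.64. The class I enzymes HDAC1, HDAC2 and HDAC3 had log2 fold changes of -0.12, 0.35 and -0.07, and none passed.

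In the HDAC6 aggresome route, 24 genes that were all tested, 3 were higher and 1 lower in edgeR's test (16.7% called, against 20.6% of all genes), while library totals gave 2 higher and 5 lower. SQSTM1, which encodes the ubiquitin receptor p62, gave 422, 467 and 461 CPM in GST and 713, 843 and 899 CPM in GST-PTR1. All GST-PTR1 libraries were above all GST libraries, with a log2 fold change of 0.86 (edgeR, adjusted p = 0.000564). OPTN, the autophagy receptor optineurin, rose by 1.16 and the cochaperone DNAJB6 by 0.37. MAP1LC3B, which encodes the autophagosome protein LC3B, fell by 0.38 (adjusted p = 0.0216), a call kept in 9 of 14 alternatives. Among others, it was lost without the GST library of 23453473 counts and without any 1 of the 3 GST-PTR1 libraries. TUBA1A, a tubulin whose protein HDAC6 deacetylates, had a log2 fold change of 0.14 and did not pass.

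**Figure D4:**
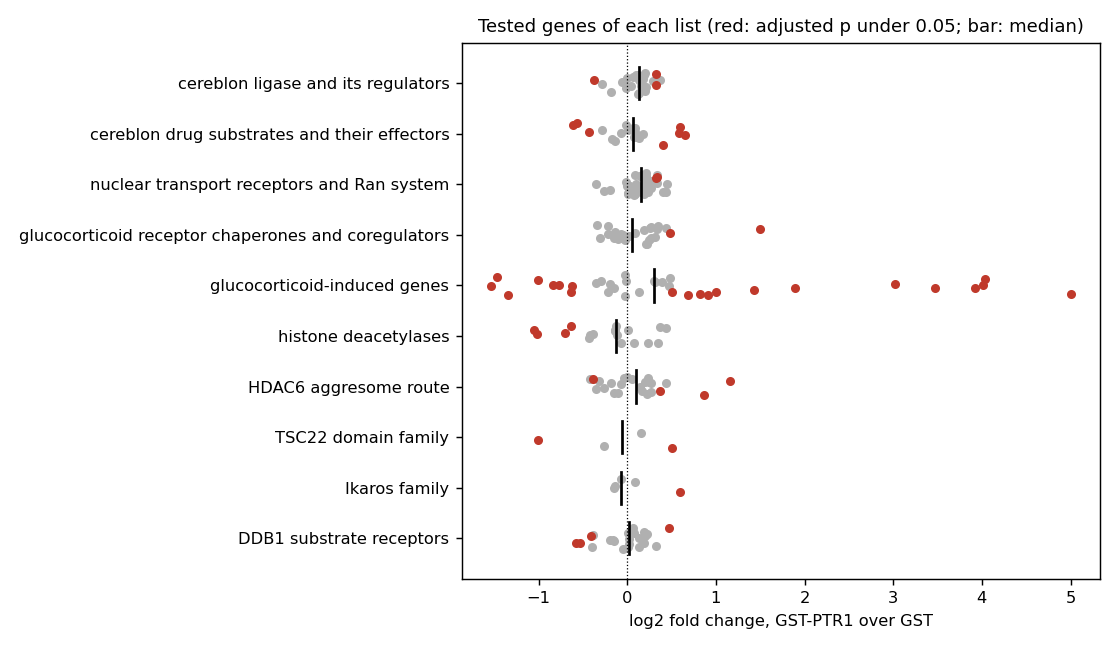
Log2 fold change of GST-PTR1 over GST (horizontal axis) for every tested gene of each gene list (rows), with genes of an adjusted p under 0.05 in red and a bar at each list's median. Glucocorticoid-induced genes spread furthest, from a decrease of 1.54 for RHOB to an increase of 5.01 for CEBPD, which was barely counted in GST (0.467 CPM). Nuclear transport genes have a median of 0.16 and 2 called genes.

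Levels can be set beside each other only per length, as RPKM on library totals. In GST the order was DDB1 with 41.3 ± 3.13 RPKM, XPO1 with 38.4 ± 2.67, CUL4A with 19.2 ± 1.23, IKZF1 with 15.04 ± 1.34 and NR3C1 with 14.7 ± 1.27 RPKM. Below them stood CUL4B with 11.2 ± 0.628, CRBN with 4.21 ± 0.845, IKZF3 with 4.06 ± 1.11, HDAC6 with 3.63 ± 0.734 and TSC22D3 with 1.27 ± 0.504 RPKM. The neighbours DDB1 and XPO1, IKZF1 and NR3C1, CRBN and IKZF3, and IKZF3 and HDAC6 had overlapping ranges. The ligase receptor CRBN lay below its adaptor DDB1, which also serves other substrate receptors.

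In GST-PTR1 the order of RPKM levels changed at IKZF1, which moved from below CUL4A to beside it. IKZF1 stood at 19.8 ± 1.90 RPKM and CUL4A at 18.4 ± 0.466 RPKM, with overlapping ranges. CUL4B stood at 7.59 ± 0.826 RPKM and TSC22D3 at 0.554 ± 0.172 RPKM. DDB1 and XPO1 remained the highest with 36.1 ± 3.26 and 33.7 ± 4.52 RPKM, and CRBN stood at 4.18 ± 0.375 RPKM. Library totals shift the log2 fold changes of all genes by -0.20, so these RPKM values order genes within a treatment only. With TMM-scaled totals, mean RPKM in GST and GST-PTR1 was 38.57 and 38.55 for DDB1 and 35.9 and 36.0 for XPO1. For CUL4B it was 10.5 and 8.12.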

How the data were processed

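RNA was extracted with TRIzol from RPMI8226 cells and made into strand-specific mRNA libraries, 3 for GST and 3 for GST-PTR1. The authors deposited raw counts of reads per gene, made with featureCounts 1.5.0-p1 on Ensembl release 75 (GRCh37), counting the reverse strand and leaving out reads shared by genes on one strand. The aligner's version is not given in the sources used here. Opposite-strand genes share up to 7.32% of a member's exon bases (CRBN), and same-strand genes share none. The table lists 63677 genes, and nothing in it was normalized. Reads are not independent molecules, so counting intervals cover counting error only.

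The quasi-likelihood test of edgeR 4.0.16 was run on the counts under R 4.3.3 (TMM, filterByExpr, glmQLFit and glmQLFTest), with Benjamini-Hochberg adjustment over 16926 genes and a threshold of 0.05. The study's methods name no model for these counts, while the sample labels list limma among the tools. Ratios were computed with a prior count of 2 and tested by exact permutation over libraries. Alternatives were DESeq2 size factors, library totals or upper-quartile factors, DESeq2 1.42.0, limma 3.58.1 voom, a filter of 1 count in any or of 10 in all libraries, the omission of single libraries, and thinning to the smallest total, which was added after seeing the data. These are the 14 alternatives counted in the text. The fit was tested on simulated data first. Pairs of replicates differed beyond sampling noise (chi-square per degree of freedom of at least 8.38), so all 6 libraries were counted.

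The members and the gene lists, which were written from general knowledge, were chosen with earlier results of these data known. Named were all members, up to 5 genes each way per list with the smallest adjusted p among those called, and a set of partner genes whatever their values. The other names (IKZF4, IKZF5, ZBTB16, SALL4 and the cell markers) complete a family, a list or a check. One marker list is not reported here.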

Additional observations from a re-analysis of the deposited data

How the results depend on the processing

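With 3 libraries a treatment, only changes well above the spread between libraries could pass, and TSC22D3, with 70 to 134 counts, was the least deeply counted member. The table's column names carry other numbers than the labelled replicates, and 2 of these numbers occur in both treatments. Deviations from the treatment means in libraries of the same number correlated across genes with r = -0.0769 and 0.361. Other pairs of libraries ranged from -0.594 to 0.495. From 2 such pairs, with deviations from means of 3 libraries, it cannot be told whether the number marks a shared replicate. In the 4 libraries concerned, a fit with that number as a replicate block, added after seeing the data, called 1603 genes higher and 1715 lower, and the same libraries without it 1790 and 1848. With the block 1 member was higher and 1 lower, CUL4B was at -0.39 (edgeR, adjusted p = 0.0561), XPO1 at -0.0024, DDB1 at 0.0284 and IKZF3 at 0.152. Without the block DDB1 was at 0.0292 and IKZF3 at 0.149. Of 140 other fits of a member under an alternative, 111 kept direction and side of the threshold. The cause of the others was not tested. IKZF1 kept its call under all 14 alternatives and with the block, and all 4 scalings called IKZF1, CUL4B and TSC22D3 in the same direction.

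Leaving out each library gave log2 fold changes of -0.41 to -0.31 for CUL4B, -1.22 to -0.68 for TSC22D3, -0.52 to -0.27 for HDAC6, -0.29 to 0.070 for IKZF3, -0.037 to 0.089 for XPO1 and -0.031 to 0.050 for DDB1, with 0 to 3 members lower. With at least 1 count in any library CUL4B was at -0.34 (adjusted p = 0.0503) and HDAC6 at -0.39 (edgeR, adjusted p = 0.0332). HDAC6 passed with library totals (-0.62, adjusted p = 0.0178) and with upper-quartile factors (-0.51, adjusted p = 0.0294). Uncalled values near 0 changed sign with library totals for CRBN (-0.0097), CUL4A (-0.066), XPO1 (-0.19) and NR3C1 (-0.11), with upper-quartile factors for XPO1 (-0.085) and NR3C1 (-0.0013), and with thinning for XPO1 (-0.0022). DDB1 was at 0.0091 with DESeq2 size factors and with DESeq2, at 0.00039 with voom, and at 0.030 and 0.00058 with the filters of 1 count in any and 10 counts in every library.

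Over all genes, library totals gave 927 higher and 3795 lower, the filter of 1 count in any library 2608 higher, a 2-fold threshold 623 higher and 652 lower, and leaving out each library 1051 to 1531 higher and 1178 to 1818 lower. Over the 10 lists together, 27 genes were higher and 20 lower. Library totals gave 16 higher and 37 lower, the filter of 1 count in any library 42 higher, and leaving out each library 16 to 26 higher and 10 to 20 lower.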

Other observations

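DDB1 serves other substrate receptors besides cereblon, the DCAF proteins. The list of DDB1 substrate receptors, CRBN included, had 23 genes, all tested. In edgeR's test 1 was higher and 3 were lower (17.4%, against 20.6% of all genes), and library totals gave 0 higher and 6 lower. DCAF8 was called in 8 of 14 alternatives and was the higher gene lost without the GST libraries of 20077280 or 23453473 counts and without the GST-PTR1 libraries of 22874133 or 28837431 counts, and 1 was lower without the last of these. DCAF8 rose from 85.8 ± 12.9 to 119 ± 15.9 CPM (SD, n = 3 and 3; log2 0.48, edgeR adjusted p = 0.0315). DDB2, the receptor for ultraviolet-damaged DNA, fell by 0.58 on the log2 scale from 22.2 ± 1.99 to 14.9 ± 2.07 CPM (adjusted p = 0.013), WDTC1 fell by 0.54 and DCAF6 by 0.41.

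In the TSC22 family, TSC22D1 was higher, TSC22D3 lower, and TSC22D2 (log2 0.15) and TSC22D4 (log2 -0.26) did not pass edgeR's test, so that 2 of 4 were called beside 20.6% of all genes. Library totals gave 0 higher and 2 lower, 2 were lower without the GST library of 20077280 counts, and 0 were lower without the GST library of 15202503 or the GST-PTR1 libraries of 28837431 or 44688737 counts. TSC22D4 stood at 82.6 ± 14.4 CPM in GST and 69.1 ± 7.12 CPM in GST-PTR1.

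Among the 8 plasma cell markers, PRDM1 (log2 1.35), SLAMF7 (1.52) and IRF4 rose, while SDC1 (-1.03), TNFRSF17 (-1.41) and XBP1 (-0.47) fell in edgeR's test, 75% of the list beside 20.6% of all genes. IRF4 thus rose beside both rising and falling markers of the same cell type. Whether its rise is linked to that of IKZF1 was not tested.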
